A study of Mus musculus with 37 samples.

Results

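The cytosolic ribosomal protein genes encode the proteins of the large and the small subunit of the ribosome outside mitochondria. They were taken as every gene whose symbol starts with Rpl or Rps and a digit, plus Rplp0, Rplp1, Rplp2 and Rpsa, without the S6 kinases and without copies whose symbol carries -ps. This gave 91 of 30892 genes in the CF table (46 large subunit, 31 small subunit, 14 paralogues and other symbols), 87 of 20158 in the NRVM table (44, 29 and 14) and 86 of 31053 in the single-cell tables. The symbol rule also took in copies annotated as pseudogenes without -ps in their symbol. Among the other symbols of the CF table these are Rps3a2, Rps3a3, Rpl6l and Rps12l1 (processed) and Rps4l and Rpl37rt (transcribed processed). Before any result, a filter on low counts left 88 members in CFs and 78 in NRVMs. In CFs, Rpl3l, Rpl39l and Rps12l1 were too low to test. In NRVMs, Rpl7a, Rpl8, Rpl38, Rpl39, Rps6, Rps19, Rpl3l, Rpl30l1 and Rps19l2 were too low.

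The study asked how ENPP1, an enzyme on the cell surface that splits extracellular ATP to AMP, acts through heart muscle cells on the other cells of the injured heart. CFs are cardiac fibroblasts from C57BL/6 mice that were immortalized with the SV40 antigen, serum-starved and then grown for 24 h or 48 h in myocyte conditioned medium (MCndM). MCndM had been collected from neonatal rat ventricular myocytes (NRVM) given vehicle, ENPP1 protein, ATP, ENPP1+ATP or AMP, and each of the 10 combinations of medium and time had 2 libraries. NRVM of Sprague-Dawley rats were treated with the same 5 additions for 24 h, with 3 libraries each. Nonmyocytes of injured hearts were taken 7 days after an infarct made by tying off the LAD artery for good and gave 1 single-cell library from control mice and 1 from ENPP1CKO mice, in which floxed ENPP1 is deleted by Col1a2CreERT after tamoxifen. All mice of that experiment were injured, and the number of hearts behind each library is not given in the sources used here. The study's methods call their replicates biological in general, while the labels do not say whether the bulk libraries came from separate cultures. If they did not, p-values measure technical spread only.

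CF libraries held 32184799 to 115824659 counts and NRVM libraries 13481389 to 16977980. Of 10 fibroblast markers, 8 exceeded 1 CPM (a count scaled to the size of its library) in every CF library and Lum did in none. The fibroblast markers summed to 7126 to 7623 CPM in vehicle MCndM over both times, 3609 to 4095 CPM in ENPP1+ATP MCndM and 2831 to 4361 CPM in AMP MCndM, and cardiomyocyte markers summed to at most 27.6 CPM in any CF library. NRVM libraries expressed 9 of 9 cardiomyocyte markers found in the table and also 9 of 9 fibroblast markers.

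The ribosome is built in the nucleolus from ribosomal RNA and one copy of most of these proteins, so their genes are usually expressed together and at high levels. Most of their mRNAs start with a C followed by a run of pyrimidines, the terminal oligopyrimidine (TOP) motif, through which mTORC1 controls their translation. Several members also act outside the ribosome: free Rpl5 and Rpl11 bind Mdm2, the ubiquitin ligase of p53, and Rps27l is a known p53 target gene. Rps27l and Rpl22l1 are paralogues of Rps27 and Rpl22.

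To show the pyrimidine runs at the start of members, windows of 30 bases, 15 on each side of the annotated transcription start, were read for 8 members whose values are described here. Capitals mark the longest run of at least 5 C or T. The sequences are from RefSeq promoters of the mouse build GRCm38.p6 and run 5′ to 3′ on the gene's strand. For Rps27l, which has 2 starts in that table, the first is shown.
Rps15a: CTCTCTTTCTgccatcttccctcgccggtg
Rps18: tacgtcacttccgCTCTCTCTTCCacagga
Rps6: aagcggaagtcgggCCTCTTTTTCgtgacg
Rps27: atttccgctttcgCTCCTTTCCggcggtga
Rpl28: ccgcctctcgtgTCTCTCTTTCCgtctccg
Rpl22l1: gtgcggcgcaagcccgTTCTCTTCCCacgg
Rps27l: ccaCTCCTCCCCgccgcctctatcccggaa
Rpl11: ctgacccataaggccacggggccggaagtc
They lie at chr7:118116133-118116162 (minus strand), chr17:33955651-33955680 (minus), chr4:86857353-86857382 (minus), chr3:90213634-90213663 (minus), chr7:4792950-4792979 (plus), chr3:28805493-28805522 (plus), chr9:66946071-66946100 (plus) and chr4:136053379-136053408 (minus). In Rps18, Rps6, Rps27 and Rpl28 the longest run spans the middle of the window, and in Rpl22l1 it begins just after the middle. In Rps15a and Rps27l it ends before the middle, and the Rpl11 window holds no run of 5. The Rps15a window also holds a shorter run of C and T that spans the middle. Of 66 CF members with a promoter in the table, 27 (40.9%) had a run of at least 8 C or T in these 30 bases, against 3760 of 27025 (13.9%) of all genes. In the 100 bases around the start 53 members (80.3%) had one, against 39.3% of all genes. Rpl11 was among these 53 members. The GENCODE annotation begins Rpl11 upstream of the window shown, at chr4:136053428, so its window depends on the start used. The counts below are of mRNA and carry no measure of translation.

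Ribosomal protein mRNA made up a smaller part of the CF transcriptome after ENPP1+ATP or AMP MCndM. At 24 h the members took 2.41% and 2.49% of counts in the 2 vehicle libraries, 1.68% and 1.74% with ENPP1+ATP MCndM, and 1.78% and 1.92% with AMP MCndM. The ENPP1+ATP share was 0.697 and the AMP share 0.756 of that in vehicle, and neither group overlapped the vehicle libraries. With ATP MCndM the share was 2.59% and 2.79%, above both vehicle libraries, and ENPP1 MCndM had a mean of 2.39%. At 48 h vehicle held 2.34% and 2.43%, ENPP1+ATP 2.10% and 2.23%, AMP 2.21% and 2.33%, and ATP 2.57% in both libraries. By 48 h the ENPP1+ATP and AMP shares had come to 0.908 and 0.951 of vehicle. For these single values an exact two-sided permutation test of 2 against 2 libraries gave p = 0.333 in each ENPP1+ATP, AMP and ATP comparison, the smallest it can give.

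**Figure D1:**
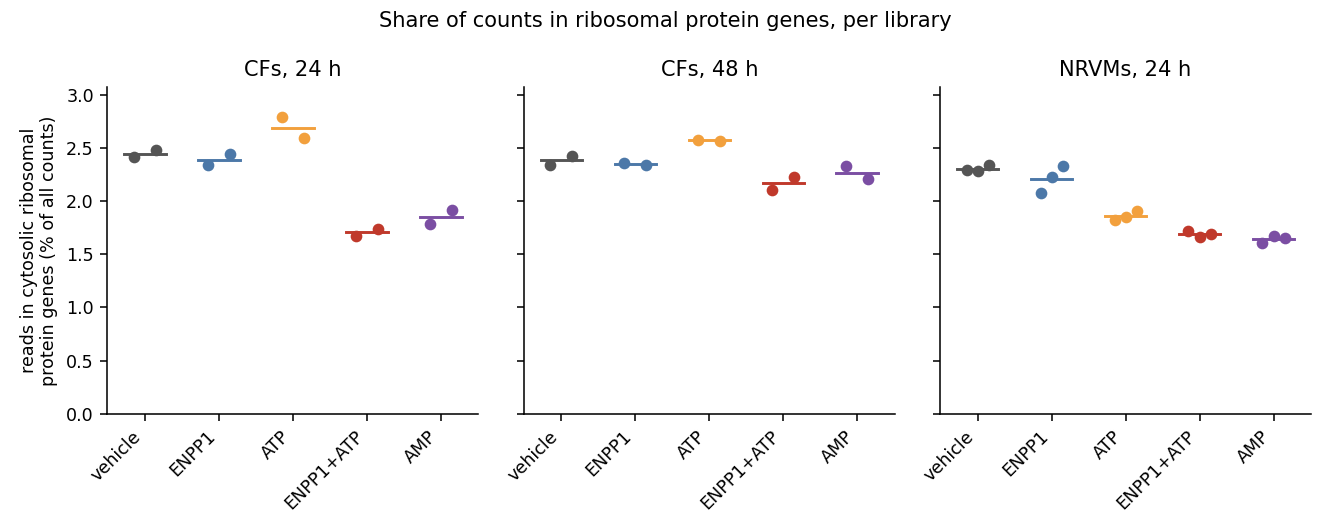
Percent of all counts in cytosolic ribosomal protein genes in each library, by medium, for CFs at 24 h and 48 h and NRVMs at 24 h; points are libraries and lines are group means. In CFs at 24 h the ENPP1+ATP and AMP libraries (1.68% to 1.92%) sit below vehicle (2.41% to 2.49%), and in NRVMs the ATP libraries (1.82% to 1.91%) sit below vehicle too.

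Gene by gene, 79 of the 88 members tested in CFs were lower and 1 was higher at 24 h of ENPP1+ATP MCndM than of vehicle MCndM (edgeR quasi-likelihood test, Benjamini-Hochberg adjusted p under 0.05 over all 17879 genes tested). In that comparison 49.1% of all genes passed, 25.3% as lower, against 89.8% of the members. The median log2 fold change was -0.66 over the members and -0.00 over all genes. Of the large subunit 45 of 46 members fell and of the small subunit 29 of 31, with medians of -0.66 and -0.71, while 5 of 11 paralogues and other symbols fell. AMP MCndM gave 74 lower and 1 higher with a median of -0.53, against a background of 52.8% called and 27.5% lower. There 42 of 46 large subunit and 28 of 31 small subunit members fell. Fewer cells and less RNA per cell cannot be told apart in bulk counts, and a fall of a share does not give the number of molecules per cell. The percent of counts in mitochondrially encoded genes moved along, from 2.15% to 2.32% over the vehicle libraries to 2.79% to 3.34% with ENPP1+ATP and 2.46% to 3.87% with AMP at 24 h, and its part in the result was not tested.

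**Figure D2:**
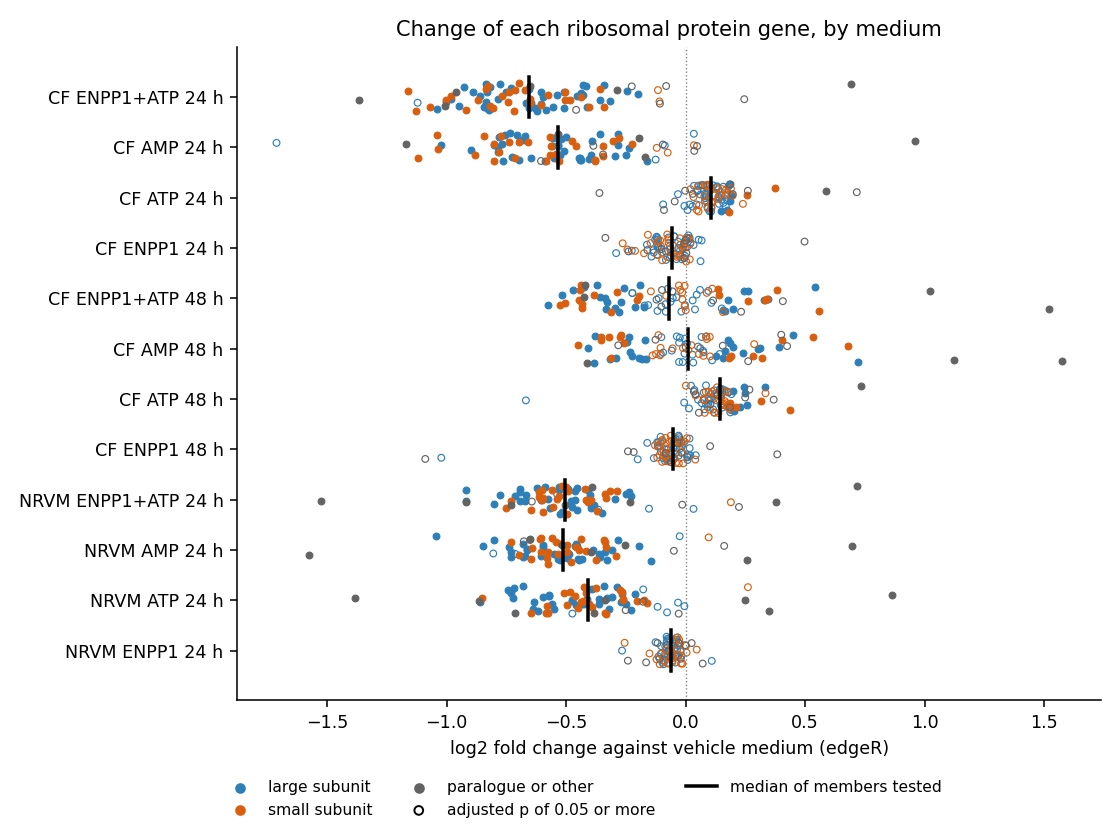
The log2 fold change against vehicle medium (x axis) of every ribosomal protein gene tested, for 12 comparisons (y axis); filled points passed an adjusted p of 0.05, open points did not, colours give the subunit and black bars the median. The bars stand at -0.66 and -0.53 for ENPP1+ATP and AMP MCndM in CFs at 24 h, near 0 at 48 h, and at -0.50, -0.51 and -0.41 for ENPP1+ATP, AMP and ATP in NRVMs.

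Among the deepest falls at 24 h were small subunit genes. Rps15a, a small subunit protein, read 150 and 166 CPM in vehicle, 71.9 and 69.3 CPM in ENPP1+ATP and 71.7 and 73.6 CPM in AMP MCndM, with no overlap. Its log2 fold changes were -1.16 ± 0.07 (SE, adjusted p = 1.4e-12) and -1.12 ± 0.07 (adjusted p = 1.6e-12). Rps27a, which is made as a fusion of ubiquitin with a small subunit protein, fell by 1.13 ± 0.07 and 1.04 ± 0.07 on the log2 scale. Rps18 went from 314 and 349 CPM to 148 and 168 CPM with ENPP1+ATP, a log2 fold change of -1.07 ± 0.07, and Rps7 fell by 0.98 and 1.03 under the 2 media. In the large subunit, Rpl10, which joins the subunit last, stood at 456 and 470 CPM in vehicle and at 230 and 257 CPM in ENPP1+ATP (-0.93 ± 0.08) and 204 and 251 CPM in AMP MCndM (-1.02 ± 0.08). Rps3a3, annotated as a processed pseudogene, had the lowest value of those called (-1.37 ± 0.32 with ENPP1+ATP) but read at most 1.78 CPM in vehicle. Its fold change was -0.39 with AMP and was not past the threshold.

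The ribosomal stalk, through which elongation factors are recruited, moved unevenly. Rplp0, its base, read 1687 and 1723 CPM in vehicle, 1498 and 1475 CPM in ENPP1+ATP and 1546 and 1506 CPM in AMP MCndM at 24 h, log2 fold changes of -0.20 ± 0.05 and -0.16 ± 0.05. Scaling by total counts alone took the AMP value to -0.09 (adjusted p = 0.096). Rplp2, a lateral stalk protein, fell from 288 and 309 CPM to 145 and 153 CPM (-1.0 ± 0.07) and 173 CPM in both AMP libraries (-0.79 ± 0.07). Its partner Rplp1 fell by 0.24 ± 0.06 with ENPP1+ATP and had a value of 0.03 ± 0.06 with AMP, where the libraries (633 and 632 CPM) lay above both vehicle libraries (614 and 621 CPM). The direct comparison of AMP with ENPP1+ATP MCndM put Rplp1 higher in AMP by 0.28 ± 0.06 (adjusted p = 0.0045). The laminin receptor gene Rpsa (-0.12 and -0.08) and Rps19 (-0.11 and 0.03), mutated in Diamond-Blackfan anemia, did not pass under either medium at 24 h.

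Rpl5 and Rpl11, which form a complex with the 5S ribosomal RNA and can bind Mdm2, fell with the rest at 24 h. Rpl5 read 334 and 357 CPM in vehicle, 216 and 231 CPM in ENPP1+ATP and 216 and 243 CPM in AMP MCndM (-0.63 and -0.59). Rpl11 read 231 and 238 CPM, 171 and 176 CPM, and 191 and 195 CPM (-0.43 and -0.28). At 48 h neither passed the threshold under either medium, with values of -0.05 and -0.01 for Rpl5 and -0.00 and 0.09 for Rpl11. In the same fits Mdm2 rose by 1.94 ± 0.07 and 2.35 ± 0.07 at 24 h and by 2.70 ± 0.07 under both at 48 h. Cdkn1a, the cell cycle inhibitor induced by p53, rose by 1.97 ± 0.14 and 2.36 ± 0.14 at 24 h. With ATP MCndM, where Rpl5 and Rpl11 were at 0.13 and 0.08 at 24 h and did not pass, Mdm2 rose by 0.76 ± 0.07 and Cdkn1a by 1.07 ± 0.14 at 24 h, and by 0.98 ± 0.07 and 1.22 ± 0.14 at 48 h. Trp53 itself was at -0.00 at 24 h of ENPP1+ATP (not past the threshold) and rose by 0.23 ± 0.04 with AMP, and at 48 h it rose by 0.37 ± 0.04 and 0.34 ± 0.04.

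Rps27l was the member that went against the others. At 24 h it read 43.2 and 48.4 CPM in vehicle, 71.6 and 75.4 CPM in ENPP1+ATP, 87.0 and 90.0 CPM in AMP, 69.5 and 67.5 CPM in ATP, and 41.9 and 44.2 CPM in ENPP1 MCndM. At 48 h it read 46.7 and 50.6 CPM in vehicle, 134 and 145 CPM in ENPP1+ATP, 161 and 129 CPM in AMP, 82.2 and 79.7 CPM in ATP, and 44.2 and 47.5 CPM in ENPP1 MCndM. All libraries of the ENPP1+ATP, AMP and ATP media lay above both vehicle libraries at both times. Log2 fold changes were 0.69 ± 0.08 (adjusted p = 1.6e-07), 0.96 ± 0.08 (adjusted p = 6.2e-10) and 0.59 ± 0.08 (adjusted p = 1.8e-05) for ENPP1+ATP, AMP and ATP at 24 h. At 48 h they were 1.52 ± 0.08, 1.57 ± 0.08 and 0.73 ± 0.08. Rps27l was the 1 member called higher against vehicle under ENPP1+ATP and under AMP MCndM at 24 h.

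Its paralogue Rps27, a zinc finger protein of the small subunit, read 183 and 198 CPM in vehicle, 123 and 119 CPM in ENPP1+ATP and 150 and 158 CPM in AMP MCndM at 24 h, falls of 0.65 ± 0.09 and 0.30 ± 0.09. At 48 h it read 175 and 173 CPM in vehicle, 206 and 236 CPM in ENPP1+ATP and 247 and 257 CPM in AMP, rises of 0.34 ± 0.09 and 0.53 ± 0.09. So Rps27 was below vehicle at the first time and above it at the second, while Rps27l was above it at both. The AMP fall at 24 h did not pass without AMP library 1 (adjusted p = 0.077) or vehicle library 2 (adjusted p = 0.058), and the ENPP1+ATP rise at 48 h did not pass without ENPP1+ATP library 2 (adjusted p = 0.072).

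Matches to the p53 decamer, the repeated unit of the p53 response element, were sought on both strands in the windows of 300 bases around RefSeq starts, from 250 before to 50 after. They occurred in 6 of 66 members (9.09%) and in 9.55% of all 27025 genes, and genes with several starts had more bases searched. Rps27l (chr9:66946086-66949516, plus strand) has 2 starts and held 2 matches, both in the window of the second start and inside an intron, 117 and 220 bases downstream of the first start, shown because this member rose. Capitals mark the match.
Rps27l, first: ctttgggctcGGGCTTGCTTtccttcaggc
Rps27l, second: gggcttgttgAGACTTGTCCgggcgacacg
Rps27, exon: ctccctacgaGAACATGCCTgtgagttcct
The windows are chr9:66946193-66946222, chr9:66946296-66946325 and, on the minus strand, chr3:90213600-90213629. Rpl35a, Rps19, Rps21 and Rps27rt held the other matches. A match is a description of letters and no evidence of binding.

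Rpl22l1 and Rpl22 form the other pair. Rpl22l1 read 41.8 and 44.1 CPM in vehicle at 24 h, 19.2 and 23.5 CPM in ENPP1+ATP and 16.7 and 21.1 CPM in AMP MCndM, log2 fold changes of -1.0 ± 0.14 and -1.17 ± 0.14, the lowest called value under AMP. Rpl22 read 112 and 115 CPM, 61.9 and 66.8 CPM, and 63.2 and 73.5 CPM (-0.82 and -0.73). At 48 h Rpl22l1 was at 40.7 and 36.7 CPM in vehicle, 29.2 and 28.5 CPM in ENPP1+ATP and 36.1 and 27.7 CPM in AMP MCndM, a fall of 0.42 with ENPP1+ATP and a value of -0.28 with AMP that did not pass. The ENPP1+ATP call at 48 h was lost without either ENPP1+ATP library (adjusted p = 0.089 and 0.11) or vehicle library 1 (adjusted p = 0.14). Rpl22 fell by 0.19 with ENPP1+ATP at 48 h, a call lost without ENPP1+ATP library 1 (adjusted p = 0.15) or vehicle library 1 (adjusted p = 0.13), and was at -0.10 with AMP, which did not pass.

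**Figure D3:**
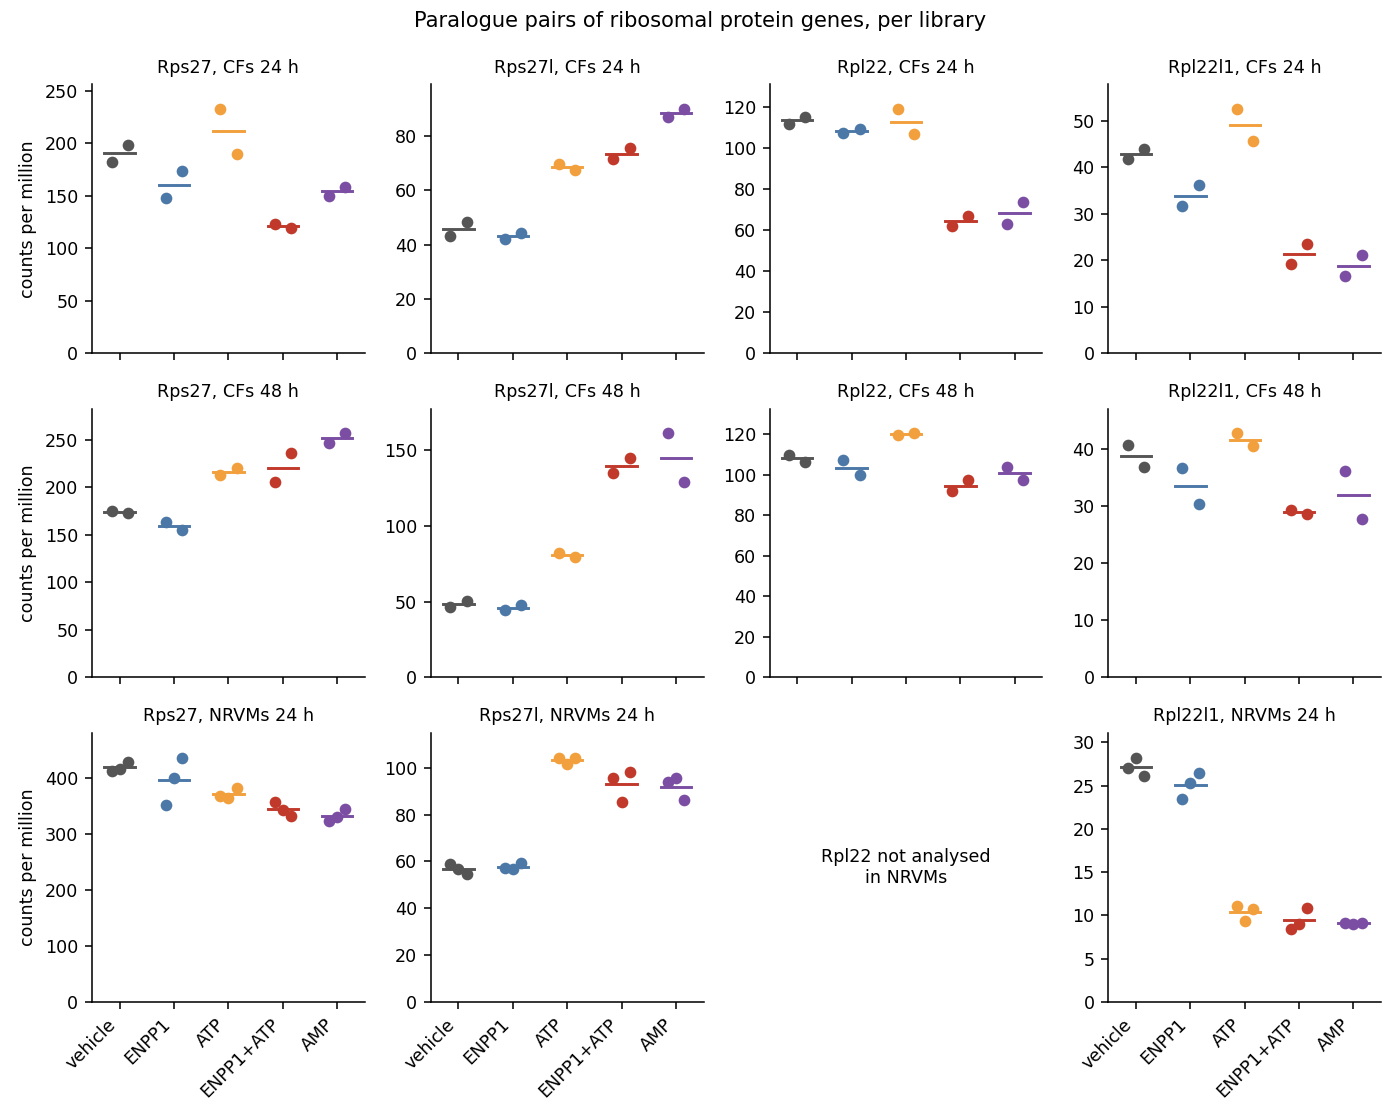
CPM of Rps27, Rps27l, Rpl22 and Rpl22l1 in each library (points) with group means (lines), by medium, in CFs at 24 h and 48 h and in NRVMs; the panel of Rpl22 in NRVMs is empty as it was not analysed there. Rps27l is higher with ATP, ENPP1+ATP and AMP in every row, and Rpl22l1 of NRVMs falls from 26.2 to 28.2 CPM in vehicle to at most 11.1 CPM.

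At 48 h the members lay closer to vehicle than at 24 h. At 48 h of ENPP1+ATP MCndM 30 members were lower and 18 higher than in vehicle (median -0.07), where 45.2% of all genes passed, 24.4% lower and 20.8% higher. With AMP MCndM 22 were lower and 21 higher (median 0.01), where 44% of all genes passed, 22.9% lower and 21.1% higher. At 48 h 34.1% of the members were lower with ENPP1+ATP, nearer to the background than at 24 h, and the AMP counts were close to it. With total counts alone as the scale, 75.9% in place of 62.5% of the member calls under ENPP1+ATP were lower, and 68.2% in place of 51.2% under AMP. Of the 79 members lower at 24 h of ENPP1+ATP, 30 were also lower at 48 h and 15 were higher, and of the 74 under AMP 22 were lower and 15 higher. The same overlap between times was not counted over all genes, so these counts cannot be set against a background.

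The difference between the times was tested as an interaction. The effect of ENPP1+ATP MCndM was higher at 48 h than at 24 h for 80 of 88 members and lower for 0, with a median difference of 0.56, where 30% of all genes passed and 15.1% as higher. For AMP MCndM 77 members were higher and 0 lower with a median of 0.56, where 31.7% passed and 17.3% as higher. Under total counts alone the medians were 0.43 and 0.41, a scale on which the median of all genes also shifted by -0.13 and -0.14. In vehicle MCndM 1 member, Rpl27, was lower at 48 h than at 24 h (-0.20 ± 0.05), where 4.88% of all genes passed, 3.2% as lower. That count was 2 without the 24 h vehicle library 1 and 0 without any other vehicle library. DESeq2 called 3 members, while edgeR called 0 with total counts alone and more than 1 with no filter on low counts. The mitochondrially encoded share was 5.30% to 5.37% at 48 h of ENPP1+ATP and 4.34% to 4.47% of AMP MCndM. Macrophage markers, of which C1qa, C1qb, C1qc, Adgre1, Fcgr1 and Mrc1 stayed under 1 CPM in every CF library, summed to 15.8 to 18.3 CPM in vehicle, 34.5 to 42.2 CPM and 73.0 to 83.9 CPM at 24 h and 48 h of ENPP1+ATP, and 58.6 to 61.8 CPM and 77.8 to 88.4 CPM of AMP MCndM. Smooth muscle and pericyte markers summed to 116 to 133 CPM in vehicle and 358 to 430.0 CPM at 48 h of both media. Of that list Kcnj8, Abcc9, Myh11, Vtn, Cspg4, Higd1b and Actg2 stayed under 1 CPM in every CF library, so a few genes carried the sum. The part of these values in the members' changes was not tested.

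Members returned to different heights. Rpl19 fell by 0.43 at 24 h of ENPP1+ATP and rose by 0.54 ± 0.06 at 48 h, when it read 308 and 322 CPM against 210 and 223 CPM in vehicle. With AMP it was 363 and 350 CPM at 48 h, a rise of 0.72 ± 0.06. Rps19 read 241 and 237 CPM with ENPP1+ATP and 271 and 250 CPM with AMP at 48 h against 161 and 164 CPM in vehicle, rises of 0.56 ± 0.06 and 0.68 ± 0.06. Rpl28 and Rps28 rose by 0.35 and 0.38 with ENPP1+ATP and by 0.39 and 0.40 with AMP. Rpl6l, annotated as a processed pseudogene, reached 1.02 ± 0.23 and 1.12 ± 0.23 at a level of at most 4.22 CPM. At the other end, Rps15a (-0.52 ± 0.07 and -0.45 ± 0.07), Rplp2 (-0.58 ± 0.07 and -0.29 ± 0.07) and Rplp0 (-0.26 ± 0.05 and -0.24 ± 0.05) were still lower at 48 h, although the AMP fall of Rplp2 did not pass without AMP library 2 (adjusted p = 0.075). The difference of effects between the times, 48 h minus 24 h, was -0.06 ± 0.07 and -0.08 ± 0.07 for Rplp0 and 0.10 ± 0.08 and 0.02 ± 0.08 for Rpsa, and none of these passed.

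**Figure D4:**
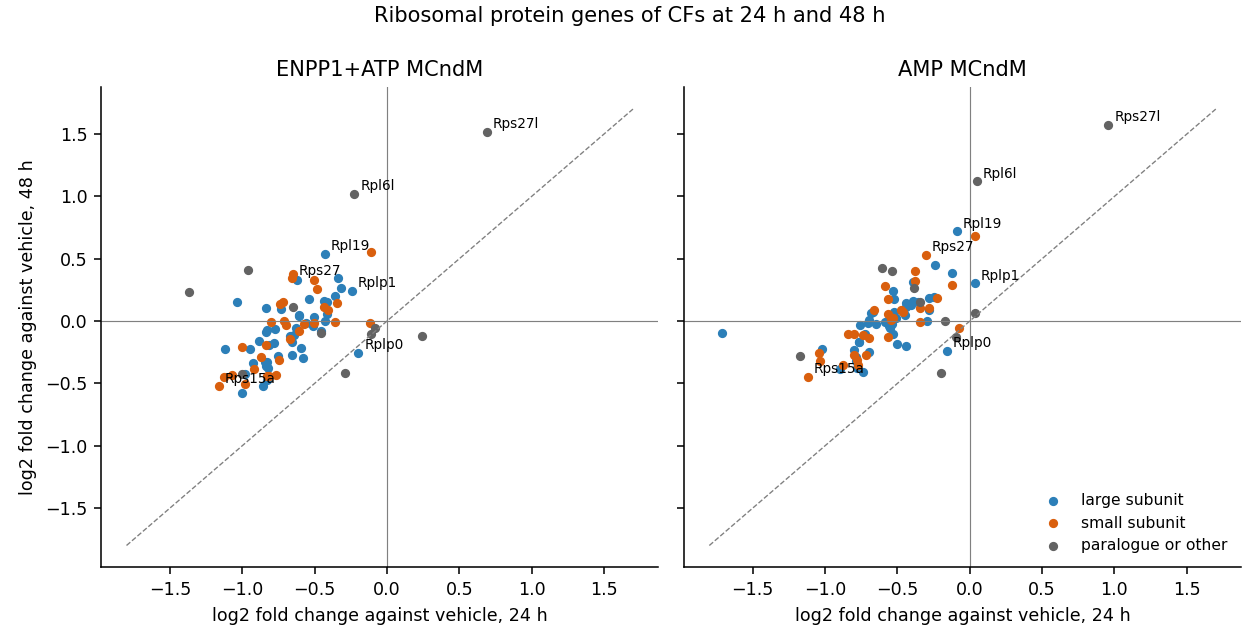
The log2 fold change against vehicle at 24 h (x axis) and at 48 h (y axis) of each of the 88 ribosomal protein genes tested in CFs, for ENPP1+ATP and AMP MCndM; the dashed line marks equal values. Nearly all points lie above the dashed line, Rps27l stands alone at upper right, and Rplp0 lies near the line.

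ATP MCndM, without added ENPP1, gave small changes in the other direction. At 24 h 10 of 88 members were higher and 0 lower (median 0.11), where 11.1% of all genes passed, 4.77% as higher and 6.32% as lower. At 48 h 14 were higher and 0 lower (median 0.14), where 7.83% passed, 5.35% as higher and 2.48% as lower. Besides Rps27l these included Rps19 (0.37 ± 0.06 and 0.44 ± 0.06) and Rplp1 (0.19 ± 0.06 and 0.33 ± 0.06) at both times, and Rps6, the target of the S6 kinases, at 24 h (0.26 ± 0.04). The 24 h count rested on single libraries: it was 3 without ATP library 1, 22 without ATP library 2, 4 without vehicle library 1 and 3 without vehicle library 2, and DESeq2 called 22. The 48 h count was 3 without either ATP library, 3 without vehicle library 1 and 7 without vehicle library 2, and it was 32 with no filter on low counts, 8 with total counts alone and 21 with DESeq2. ENPP1 MCndM had 0 members past the threshold at either time with edgeR, where 0% of all genes passed, and DESeq2 also called 0, while edgeR with no filter on low counts called 4 members as lower at 24 h. At an unadjusted p under 0.05 there were 10 members of 249 genes at 24 h and 2 of 743 at 48 h.

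The AMP and ENPP1+ATP media were compared directly in the same fit. At 24 h 14 members were higher with AMP and 0 lower, where 6.25% of all genes passed, 2.6% as higher and 3.65% as lower, among them Rps27 (0.35 ± 0.09), Rpl19 (0.34 ± 0.06), Rps20 (0.30 ± 0.06) and Rpl17 (0.29 ± 0.06). That count was 12 without AMP library 1, 4 without AMP library 2 (1 of them lower), 1 without ENPP1+ATP library 1 and 8 without ENPP1+ATP library 2. At 48 h edgeR called 0 members, with 0.162% of all genes called, 0.0727% as lower, while 20 members of 2460 genes had an unadjusted p under 0.05 and DESeq2 called 1 member of 125 genes. With no filter on low counts more members were called at both times, as given under the processing.

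Members also fell in the NRVMs themselves, where the additions acted directly for 24 h. They took 2.29% to 2.34% of counts in the 3 vehicle libraries, 1.67% to 1.72% with ENPP1+ATP, 1.60% to 1.67% with AMP and 1.82% to 1.91% with ATP, while ENPP1 alone spanned 2.08% to 2.33% and overlapped vehicle. ENPP1+ATP, AMP and ATP did not overlap vehicle, and the exact two-sided permutation test of 3 against 3 gave p = 0.1, its smallest value. Of 78 members tested, 68 were lower and 2 higher with ENPP1+ATP (median -0.50), where 56% of 13461 genes passed and 27.4% as lower. AMP gave 68 lower and 2 higher (median -0.51; 57.2% of all genes, 28% lower) and ATP 65 lower and 3 higher (median -0.41; 59.9% of all genes, 29.7% lower and 30.2% higher). ENPP1 alone gave 0 with edgeR (0% of all genes; 8 members of 693 genes at an unadjusted p under 0.05) and 0 members with DESeq2. Of the large subunit 36, 37 and 34 of 40 members fell with ENPP1+ATP, AMP and ATP, and of the small subunit 26 of 27 under each.

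These cultures changed in other ways alongside. The fibroblast markers summed to 24930 to 26310 CPM in vehicle, 8451 to 8913 CPM with ENPP1+ATP, 11720 to 12520 CPM with AMP and 10540 to 11890 CPM with ATP. The cardiomyocyte markers summed to 29400 to 30360 CPM in vehicle, 25180 to 26190 CPM with ENPP1+ATP, 29040 to 30730 CPM with AMP and 17230 to 18310 CPM with ATP. All 9 fibroblast markers in the table were expressed, and the part of the change in cell mixture in the members' fall was not tested. The mitochondrially encoded share was 8.14% to 8.35% in vehicle and 10.5% to 11.1% over the ENPP1+ATP and AMP libraries, and 8.77% to 9.62% with ATP, under which 65 members fell.

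Rpl22l1 had the lowest value of all members under each of the 3 additions to NRVMs. It read 27.0, 28.2 and 26.2 CPM in vehicle, 8.45, 9.01 and 10.8 CPM with ENPP1+ATP, 9.15, 9.05 and 9.11 CPM with AMP and 11.1, 9.38 and 10.7 CPM with ATP, so no treated library reached the lowest vehicle library. Log2 fold changes were -1.52 ± 0.10 (adjusted p = 4.2e-17), -1.58 ± 0.10 (adjusted p = 1.9e-17) and -1.38 ± 0.10 (adjusted p = 3.8e-16). Other low values were those of Rpl10a (-0.92, -0.85 and -0.86), Rpl13a (-0.92 and -1.04 with ENPP1+ATP and AMP), Rpl12 (-0.78, -0.80 and -0.74) and Rpl3 (-0.80 and -0.74 with ENPP1+ATP and AMP), the last of which helps to form the peptidyl transferase center. Rpl3 read 840, 815 and 863 CPM in vehicle and 488, 465 and 491 CPM with ENPP1+ATP. Rpl5 (-0.52, -0.53 and -0.55) and Rpl11 (-0.40, -0.36 and -0.32) fell as well.

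Rps27l rose in NRVMs too. It read 58.9, 56.8 and 54.5 CPM in vehicle, 95.8, 85.6 and 98.2 CPM with ENPP1+ATP, 93.9, 95.5 and 86.4 CPM with AMP and 104, 102 and 104 CPM with ATP, with no overlap. The log2 fold changes were 0.71 ± 0.05, 0.70 ± 0.06 and 0.86 ± 0.05. Rps27 fell from 413, 417 and 429 CPM to 332 to 357 CPM with ENPP1+ATP (-0.29) and 324 to 344 CPM with AMP (-0.33), and its value with ATP was -0.18, or -0.07 and not past the threshold with total counts alone. The other calls against the majority were Rps4y2 with ENPP1+ATP (0.38 ± 0.10) and ATP (0.25 ± 0.10) and Rpl10l with AMP (0.26 ± 0.11) and ATP (0.35 ± 0.10). Of these, the AMP value of Rpl10l and the ATP value of Rps4y2 did not pass with DESeq2 (adjusted p = 0.084 and 0.090). The Rpl10l call with AMP was also lost without any 1 of 5 of the 6 libraries compared, the exception being vehicle library 1, and the Rps4y2 call with ATP without ATP library 2, ATP library 3 or vehicle library 1 (adjusted p = 0.056, 0.11 and 0.25). In the same fits Mdm2 rose by 1.02 ± 0.05, 1.06 ± 0.05 and 1.42 ± 0.05 and Cdkn1a by 1.04 ± 0.04, 1.21 ± 0.04 and 1.34 ± 0.04.

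CFs and NRVMs were set side by side over the 71 symbols tested in both. With ENPP1+ATP 60 were lower in both cell types, which is 60 of the 65 lower in CFs at 24 h and of the 64 lower in NRVMs, and Rps27l was the 1 higher in both. With AMP 59 were lower in both, of 62 and 65. Of the 10945 symbols of any gene tested in both, 15% were lower in both with ENPP1+ATP and 15.8% with AMP, beside 84.5% and 83.1% of the 71 members. Across these genes, which are not independent and whose levels depend on the same counting, Pearson's r of the log2 fold changes was 0.53 and Spearman's rho 0.38 for ENPP1+ATP, and 0.51 and 0.33 for AMP. ATP differed by cell type: 62 of the 71 were lower in NRVMs and 0 in CFs, and 6 that were higher in CFs were lower in NRVMs, which is 8.45% of the members beside 1.01% of all symbols tested in both. NRVM received ATP itself while CFs received the medium of such cells, so the 2 designs are not the same exposure, and the difference between them was not tested.

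Other TOP mRNAs, which encode elongation and initiation factors and their partners, were followed as a list of 19 genes. At 24 h in CFs 14 were lower and 1 higher with ENPP1+ATP, and 13 lower and 1 higher with AMP, with medians of -0.30 and -0.29, where 25.3% and 27.5% of all genes were lower. Eef1g (-0.82 ± 0.05), Eif3e (-0.72 ± 0.06) and Eef1a1 (-0.64 ± 0.06), subunits of elongation and initiation factors, fell most with ENPP1+ATP, and Pabpc1, the poly(A)-binding protein, rose by 0.26 ± 0.06. At 48 h 7 were higher and 1 lower with ENPP1+ATP, where 20.8% and 24.4% of all genes were, among them Pabpc1 (0.81 ± 0.06) and Eef1a1 (0.39 ± 0.06). In NRVMs 18 of 18 fell with ENPP1+ATP and with AMP and 17 with ATP, where 27.4%, 28% and 29.7% of all genes fell, led by Eef1a1 (-0.78, -0.73 and -0.88). The list of 14 mTORC1 genes split, with 5 higher and 5 lower in CFs at 24 h of ENPP1+ATP, where 49.1% of all genes passed. Eef2k, the kinase of elongation factor eEF2, fell by 1.23 ± 0.09 and Eif4ebp1, a repressor of cap-dependent translation, fell by 0.98 ± 0.07, whereas Mlst8 and Mtor rose by 0.36 ± 0.06 and 0.29 ± 0.05. With AMP at 24 h Mlst8 rose by 0.21 ± 0.06 and Mtor, at 0.07 ± 0.05, did not pass. At 48 h Mlst8 was lower with ENPP1+ATP (-0.41 ± 0.06) and AMP (-0.44 ± 0.06). In NRVMs Eif4ebp1 fell under ENPP1+ATP, AMP and ATP (-0.70, -0.80 and -0.63).

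The proteins of the mitochondrial ribosome have separate genes, named Mrpl and Mrps. In CFs at 24 h 36 of 79 were lower and 8 higher with ENPP1+ATP (median -0.19), where 25.3% of all genes were lower and 23.9% higher, and 30 lower and 11 higher with AMP (median -0.13), where 27.5% were lower and 25.3% higher. In NRVMs the count went the other way, with 47 of 72 higher and 3 lower with ENPP1+ATP (median 0.25), 50 higher and 1 lower with AMP (median 0.28) and 27 higher and 9 lower with ATP (median 0.09), where 28.6%, 29.2% and 30.2% of all genes were higher. In the myocyte cultures, therefore, the medians of cytosolic and mitochondrial ribosomal protein genes had opposite signs under each of these additions.

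In the single-cell data of injured hearts, 5236 cells of the control and 7252 of the ENPP1CKO library were kept, with median totals of 3701 and 3365 unique counts. There is 1 library per genotype, so no difference between genotypes can be tested. Intervals (95%) cover counting error only, and 68 barcodes occur in both libraries. In fibroblast-like cells Enpp1 was at 129 CPM in control and 28.8 CPM in ENPP1CKO, from 1342 and 474 counts. Clusters were named from markers and members were left out of the genes used for clustering. Of 18 clusters 17 were named, and 1 led by Msln, Upk3b and Krt19 stayed unnamed (116 and 28 cells).

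Members made up 16.9% of counts in control and 17.8% in ENPP1CKO over all cells, far more than in the bulk libraries, which were counted by another method. Levels differed between classes of cells. In the control library T/NK-like cells held 23.9%, dendritic-like 19.1%, endothelial-like 18.4%, fibroblast-like 17.6%, smooth muscle or pericyte-like 15.9% and macrophage-like 15.2%. B-like cells were at 25.7% (82 cells) and neutrophil-like cells at 6.39% (97 cells, median total of 694 counts). Those last classes had 29 and 17 cells in the ENPP1CKO library and were not compared between genotypes, like the cardiomyocyte-like cluster (11 and 32 cells). Neighbours in this order lay apart by more than counting error, but the quartile ranges of the cells overlapped, as between fibroblast-like (14.96% to 19.9%) and endothelial-like cells (15.7% to 21.1%).

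Between genotypes the share was higher in ENPP1CKO in 5 of the 6 classes compared, a set left by the limit on cells. Of those left out, B-like cells held 25.7% in control and 17.5% over both libraries together, so the ENPP1CKO cells lay below control. Neutrophil-like cells held 6.39% in control and 6.665% over both libraries. The share was 23.9% in control and 28.5% in ENPP1CKO in T/NK-like cells (log2 ratio 0.25, interval 0.24 to 0.26; 142 and 181 cells) and was 19.1% and 24.0% in dendritic-like cells (0.32, 0.31 to 0.34; 96 and 81 cells), whose dendritic markers summed to 2377 and 1348 CPM. Macrophage-like cells were at 15.2% and 16.7% (0.14, 0.13 to 0.14; 2566 and 2075 cells) and endothelial-like cells at 18.4% and 19.5% (0.08, 0.07 to 0.09; 191 and 933 cells), with median totals of 2597 and 1473 counts. Fibroblast-like cells, in which the Cre is driven, were at 17.6% and 17.8% (0.012, 0.0093 to 0.015; 1860 and 3719 cells). Smooth muscle or pericyte-like cells were lower in ENPP1CKO, 15.9% and 14.1% (-0.17, -0.19 to -0.15; 75 and 157 cells), where median totals were 4033 and 2011 counts and the mitochondrially encoded share was 2.85% and 4.74%. The part of that depth and RNA quality in the value was not tested.

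**Figure D5:**
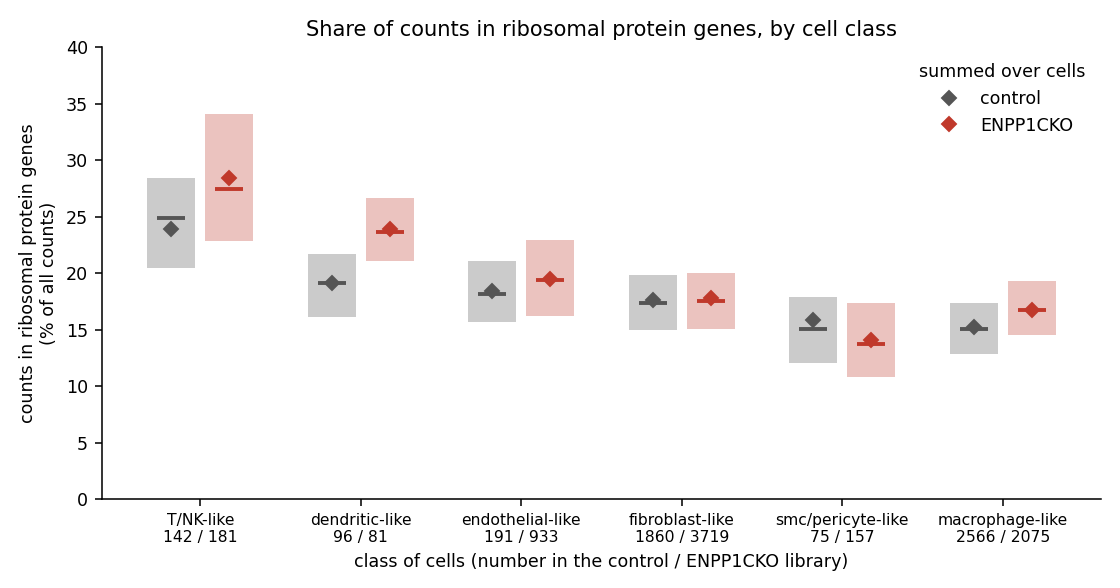
Percent of counts in ribosomal protein genes in 6 classes of cells of the control and the ENPP1CKO library; diamonds are the summed counts of a class, dashes the median cell and shaded boxes the middle range from the lower to the upper quartile of cells. ENPP1CKO diamonds stand above control in T/NK-like (28.5% and 23.9%) and dendritic-like cells (24.0% and 19.1%), nearly level in fibroblast-like cells and below in smooth muscle or pericyte-like cells.

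Within clusters the direction was mostly the same. Macrophage-like clusters 0, 2 and 10 went from 16.0% to 17.3%, 14.7% to 15.8% and 14.98% to 16.3%, although cluster 10 made up 31.9% of that class in control and 2.65% in ENPP1CKO. Fibroblast-like clusters 3, 4 and 6 went from 18.0% to 18.5%, 16.3% to 16.9% and 17.9% to 18.4%, and cluster 8, led by interferon-induced genes, from 17.2% to 15.8%. Cluster 4 took 16.2% of fibroblast-like cells in control and 33.9% in ENPP1CKO, and cluster 6 took 21.6% and 3.52%. Names were rebuilt here and may differ from the study's own.

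By gene, 68 of 83 members with at least 200 counts (81.9%, beside 33.3% of all genes of that class) had a ratio above 0 in macrophage-like cells, with a median log2 ratio of 0.14 against -0.10 over all genes of that class with such counts. In T/NK-like cells 73 of 77 were above 0 (median 0.25 against -0.00), in dendritic-like 72 of 77 (0.30 against -0.03), in endothelial-like 57 of 78 (0.09 against -0.03) and in fibroblast-like 47 of 83 (0.02 against 0.01). Over all genes of these classes 49.3%, 47.0%, 45.6% and 52.0% were above 0, so that the members' 56.6% in fibroblast-like cells lay near that of all genes. In smooth muscle or pericyte-like cells 11 of 75 were above 0 (median -0.20 against -0.04), beside 46.5% of all genes. High ratios over all cells, where the mix of classes differed between the libraries, were those of Rpl39 (0.21, 3171 and 3662 CPM), Rpl22l1 (0.20, 1116 and 1284 CPM) and Rps15 (0.20, 1702 and 1953 CPM). Within macrophage-like and fibroblast-like cells the log2 ratios were 0.30 and 0.13 for Rpl39, 0.14 and 0.09 for Rpl22l1, and 0.23 and 0.14 for Rps15.

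Rpl36al, a paralogue of Rpl36a, had the lowest ratio over all cells. It was at 317 CPM in control and 173 CPM in ENPP1CKO over all cells (-0.87, interval -0.93 to -0.82), at -0.85 in fibroblast-like and -0.79 in macrophage-like cells. Rpl36a itself was at 921 and 997 CPM (0.11). Rpl9 (229 and 141 CPM, -0.70) and Rpl7a (351 and 262 CPM, -0.42) were lower in ENPP1CKO too, as were Rpl27 (27.1 and 16.1 CPM, -0.76) and Rps12 (31.7 and 23.1 CPM, -0.45). Members that share reads with near-identical copies elsewhere in the genome are uncertain, since the handling of such reads is not given in the sources used here. Rps27l, which rose in the treated cultures, was at 704 and 683 CPM over all cells (-0.04), at -0.06 in fibroblast-like and -0.01 in macrophage-like cells, and at -0.44 (interval -0.82 to -0.06) in T/NK-like and -0.39 (-0.60 to -0.18) in dendritic-like cells, where most other members were higher.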

How the data were processed

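The authors deposited gene counts for 20 CF and 15 NRVM libraries and unique molecule counts per cell for 2 single-cell libraries. The submitters' processing notes name STAR 2.5.3a, Cell Ranger and the builds mm10 and rn6. How reads shared by gene copies were counted is not given in the sources used here, so members with near-identical copies are uncertain. Rpl24 in CFs and Rpl7a, Rpl8, Rpl38, Rpl39, Rps6 and Rps19 in NRVMs were close to 0. Rpl35a, Rpl36a and Rpl37 were tested in NRVMs but read at most 1.29 CPM there. Whether these low values reflect expression or the counting was not tested. All libraries of a cell type were fitted together with edgeR 4.0.16 (R 4.3.3; low-count filter, TMM scaling, robust quasi-likelihood test, Benjamini-Hochberg adjustment over all genes tested, threshold 0.05). The fit was tested on simulated data, and the outcome is not given here. CPM are scaled by TMM, and shares of counts are of each library's total. DESeq2 1.42.0, other scalings, no filter, a replicate block and leaving out each library were alternatives. Cells with under 200 genes or over 20% mitochondrial counts were dropped, Scrublet doublets were removed, and scanpy 1.11.5 clustered the rest on 2000 variable genes without members (30 components, 15 neighbours, Leiden 0.5). A class with under 50 cells in a library was not compared, a limit set after seeing the data. A name needed 3 markers. Named genes were fixed members (paralogue pairs, stalk, Rpl5, Rpl11, Rps6, Rpl26), up to 5 highest, 5 lowest and 5 against the majority per comparison, and up to 3 per direction in other lists. Rps20, Rpl17, Rpl28 and Rps28 come under the highest values. One item is not reported here. The members and lists were chosen with earlier results of these data known.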

Additional observations from a re-analysis of the deposited data

Results flagged for a closer look

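The effect of ENPP1+ATP MCndM on CFs differed between the times by the interaction test in edgeR: 80 members of 88 had a higher effect at 48 h, with a median log2 difference of 0.56. The same test for AMP MCndM gave 77 members and a median of 0.56. ATP moved the members' share of counts to opposite sides in the 2 cell types at 24 h. It was 0.244 percentage points above vehicle in CFs given ATP MCndM and -0.445 points from vehicle in NRVMs given ATP, with every ATP library on one side of every vehicle library, and the difference between the cell types was not tested.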

How the results depend on the processing

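Among the medians and counts of members, 359 values under alternatives stayed near the main value and 57 moved. Among the members named in each comparison, no called one changed sign under another scaling. Over all alternatives, leaving out single libraries included, 44 values of named members lost their call and 10 changed sign. The cause of each move was not tested. With total counts alone the medians were -0.59 (ENPP1+ATP) and -0.46 (AMP) at 24 h, -0.14 and -0.063 at 48 h, 0.43 and 0.41 for the differences between times, and -0.44 (ENPP1+ATP) and -0.30 (ATP) in NRVMs, where Rplp1 with ATP turned to 0.075. The ATP MCndM counts were then 18 at 24 h and 8 at 48 h, and that of vehicle 48 h against 24 h was 0. With no filter, counts were 16 and 32 for ATP MCndM at 24 h and 48 h, 4 for ENPP1 MCndM at 24 h, 22 and 4 for AMP against ENPP1+ATP at 24 h and 48 h, and 5 for vehicle, and Rplp1 with AMP at 24 h was -0.0070. DESeq2 called 22 for ATP MCndM at 24 h, 1 for AMP against ENPP1+ATP at 48 h and 3 for vehicle. At 48 h Rpl11 with ENPP1+ATP was at 0.023 under DESeq2 and 0.024 under RLE scaling, and Rpl5 with AMP at 0.017 under both.

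Leaving out each library gave medians of -0.72 to -0.64 (ENPP1+ATP, 24 h), -0.58 to -0.45 (AMP, 24 h), 0.035 to 0.19 (ATP, 24 h), 0.029 to 0.16 (AMP against ENPP1+ATP, 24 h) and 0.50 to 0.63 (AMP, difference between times). Counts were 3 to 22 and 3 to 7 for ATP MCndM at 24 h and 48 h, 1 to 12 and 0 to 1 for AMP against ENPP1+ATP at 24 h and 48 h, and 0 to 2 for vehicle. Rpl5 (AMP, 48 h) ranged from -0.083 to 0.081 and Rpl11 (ENPP1+ATP, 48 h) from -0.074 to 0.071.

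With the replicate number as a block the counts of members were 13 for ATP MCndM at 24 h, 17 at 48 h, 44 for AMP at 48 h, 15 for AMP against ENPP1+ATP at 24 h and 79 for the ENPP1+ATP difference between times, and equal to the main counts elsewhere. The deviations of same-numbered libraries correlated at -0.11 to 0.13, CF groups share only 2 numbers, no NRVM comparison had a correlation over 0.062, and no label ties a number to a shared batch, so the numbers were not taken as pairs. Crossing the ATP numbers at 24 h, chosen after seeing the data, gave a count of 16 under the block.

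In single cells the log2 ratio of the share outside mitochondrially encoded genes was 0.074 over all cells, 0.146 in macrophage-like and -0.143 in smooth muscle or pericyte-like cells. With at least 2000 counts a cell it was 0.057 over all cells, 0.315 in T/NK-like, 0.070 in endothelial-like and 0.128 in macrophage-like cells. When a cell needed 500 genes and under 10% of its counts from mitochondria, the ratio was 0.066 over all cells, 0.0092 in fibroblast-like and 0.132 in macrophage-like cells. With doublets kept it was 0.268 in T/NK-like, 0.304 in dendritic-like and 0.0048 in fibroblast-like cells.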
